A study of Mus musculus with 36 samples.

Results

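The genes of MHC class I antigen presentation were examined in primary enteric glial cells (EGCs) exposed to the secreted factors of a colorectal tumor. The 10 members were rows of the count table: B2m, H2-K1, H2-D1, Tap1, Tap2, Tapbp, Psmb8, Psmb9, Psmb10 and Nlrc5. They were named in advance of this description, but with earlier results of these data known. All 10 were found among the 43472 genes of the table, of which 23121 had at least 1 count. The cells were wild-type EGCs grown from neurospheres of digested whole intestines of C57BL/6J mouse embryos, so other cells of the embryonic gut wall could be present in the cultures. They were left unstimulated, or received H-CM, the overnight medium of digested healthy colon, or TME-CM, the overnight medium of digested orthotopic tumors of MC38, a murine colon carcinoma line. RNA was taken after 6 h, 12 h or 24 h, with 4 libraries in each of the 9 groups and 36 in all. The labels do not say whether replicates came from separate cultures or animals, so that p-values measure the spread between these libraries, which may be technical.

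MHC class I molecules show peptides from inside the cell to CD8+ T cells. The proteasome cuts proteins into peptides, and interferons induce the immunoproteasome subunits Psmb8, Psmb9 and Psmb10, which replace its catalytic subunits. The transporter made of Tap1 and Tap2 moves the peptides into the endoplasmic reticulum, where tapasin (Tapbp) helps to load them onto a heavy chain such as H2-K1 or H2-D1 paired with the light chain B2m. Nlrc5 is the transactivator that drives class I genes, and most nucleated cells raise the whole set in response to interferon. Neural cells usually hold low levels of it at rest.

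RNA was read by 3′ mRNA sequencing, in which each transcript gives reads near its 3′ end, and levels are given as CPM, counts per 1000000 counts of the library after TMM scaling within a time point. As CPM from 3′ reads are not scaled by length, levels are compared between libraries and not between genes. Library totals ran from 13518 to 5244763 counts at 6 h, from 2005239 to 5961933 at 12 h and from 1608018 to 7552509 at 24 h. H-CM replicate 4 of 6 h held 13518 counts and unstimulated replicate 3 of 6 h 256453, so that 6 h gives the least precise values. The biological coefficient of variation fell from 0.756 at 6 h to 0.35 at 12 h and 0.213 at 24 h.

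The 9 enteric glia markers summed to between 229 and 374 CPM in each library of 12 h and 24 h, and 0 of 9 passed the edgeR test in any comparison at these times, with 0 to 2 of them at an unadjusted p under 0.05. The cultures also held smooth muscle and fibroblast transcripts. At 24 h, 7 smooth muscle markers summed to 8328 to 9559 CPM in unstimulated, 3914 to 4822 in H-CM and 2044 to 2988 in TME-CM EGCs. The 6 fibroblast markers summed to 5917 to 7839, 5305 to 5868 and 6473 to 8275 CPM in the same order. In bulk RNA, fewer cells of a type and less RNA per cell cannot be told apart, and the part of these cells in the results below was not tested.

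Of the 10 genes, 7 lie within 1.35 Mb of mouse chromosome 17, in the major histocompatibility complex (GRCm38, the assembly also called mm10). Psmb9 (chr17:34181987-34187764, minus strand) and Tap1 (chr17:34187553-34197225, plus strand) lie on opposite strands with start sites 211 bases apart, and they overlap at these ends, with 212 exon bases in common. Psmb8 follows 495 bases after Tap1, and Tap2 follows 2072 bases after Psmb8. B2m lies on chromosome 2, and Psmb10 and Nlrc5 lie on chromosome 8. Of the 451 stretches of 50 bases in the last 500 bases of a transcript, H2-K1 shared 2 (0.4%) with H2-D1, and the other 8 genes shared none with any other transcript. H2-D1 shared 43 stretches (9.5%) with several unrelated genes, and the authors' counting left out reads that map to several loci. Tapbp shares 149 exon bases with Zbtb22 on the same strand and 904 with the antisense gene Gm19412, so its counts are less certain if the counting ignored strand, which the sources used here do not state. The antisense genes that overlap Psmb8 and Tap2 (Gm20496 and Gm15821) held 0 counts in all 36 libraries.

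Promoter sequences, from 250 bases before to 50 after the start site, were found in RefSeq (GRCm38.p6) for 8 of the 10 genes. Shown are those of both heavy chains and the light chain, which pair in class I molecules, and that of Tap1, which is shared with Psmb9. Other members moved with the set as closely. H2-K1 is at chr17:34000298-34000597 on the minus strand, H2-D1 at chr17:35262844-35263143, B2m at chr2:122147437-122147736 and Tap1 at chr17:34187306-34187605, each of the last 3 on the plus strand. Capitals mark the NF-kB element (GGGNNTTCC), the core of the interferon-stimulated response element (GAAANNGAA), the core of the X2 box (TGACG) and, in the first 3 sequences, the Y box (CCAAT, read here as ATTGG) that follows it. Matches left in lower case are CGTCA, an X2 core on the other strand, at position 45 of B2m, and CCAAT at 9 of H2-K1, -53 of H2-D1 and -222 of Tap1.
H2-K1: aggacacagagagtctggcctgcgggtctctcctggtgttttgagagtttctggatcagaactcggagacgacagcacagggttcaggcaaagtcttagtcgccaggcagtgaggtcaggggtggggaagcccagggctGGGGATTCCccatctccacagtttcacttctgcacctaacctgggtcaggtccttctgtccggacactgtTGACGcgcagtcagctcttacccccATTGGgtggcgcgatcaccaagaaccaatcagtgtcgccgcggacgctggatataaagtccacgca
H2-D1: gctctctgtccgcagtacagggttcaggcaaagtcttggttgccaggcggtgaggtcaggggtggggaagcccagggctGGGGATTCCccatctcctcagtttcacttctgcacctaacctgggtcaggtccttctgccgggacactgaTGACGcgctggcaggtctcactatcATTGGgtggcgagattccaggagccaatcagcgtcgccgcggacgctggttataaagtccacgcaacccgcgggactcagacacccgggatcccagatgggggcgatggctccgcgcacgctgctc
B2m: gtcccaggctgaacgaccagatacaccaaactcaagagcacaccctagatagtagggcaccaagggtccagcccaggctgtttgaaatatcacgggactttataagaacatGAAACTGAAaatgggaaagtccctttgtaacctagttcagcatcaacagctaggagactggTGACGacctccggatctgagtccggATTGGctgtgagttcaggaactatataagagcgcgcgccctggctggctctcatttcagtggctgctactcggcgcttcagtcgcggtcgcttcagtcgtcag
Tap1: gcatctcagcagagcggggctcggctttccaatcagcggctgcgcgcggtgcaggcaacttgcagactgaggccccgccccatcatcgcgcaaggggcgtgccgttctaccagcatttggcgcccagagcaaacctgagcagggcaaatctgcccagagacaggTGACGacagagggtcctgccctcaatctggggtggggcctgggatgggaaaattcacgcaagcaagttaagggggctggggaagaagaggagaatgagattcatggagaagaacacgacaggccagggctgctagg
Motifs were searched on both strands, and none overlapped another in the marked positions. The heavy chains held the same 9 bases, GGGGATTCC, starting at position -111 of H2-K1 and -171 of H2-D1 relative to the start site, and 5.82% of all 32851 promoter windows hold such an element. B2m held GAAACTGAA at position -139, a motif found in 8.56% of windows. TGACG was followed by ATTGG with 25 bases between their first bases in H2-K1 (-41 and -16), H2-D1 (-101 and -76) and B2m (-78 and -53). This spacing, chosen after the sequences were seen, occurs on the plus strand in 19 of 32851 windows (0.058%), and among the 8 members in these 3. CCAAT stood in 6 of the 8 members and 37.4% of windows, and TGACG in 5 of 8 and 20.8%. The NF-kB element stood in 2 of 8 members and the core of the interferon-stimulated response element in 1 of 8. A STAT element (TTCNNNGAA), also searched, stood in 1 of 8, Psmb8, and in 8.3% of windows. Psmb10 held none of these motifs. The Tap1 and Psmb9 windows share 275 bases on opposite strands. Their matches to CCAAT and to TGACG are the same bases, counted above for each gene.

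TME-CM raised the class I genes above H-CM at 24 h, when 8 of the 10 were called higher and 0 lower (edgeR's quasi-likelihood test, adjusted p under 0.05), against 2.75% of 12713 genes tested that were called higher. The median log2 fold change of the 10 genes was 1.62, against 0.00490 over all genes tested. At 12 h, 3 of 10 were called higher, Tap1, Psmb9 and Psmb10, against 1.22% of 12156 genes. The median of the 10 was 1.94 there, and all 10 had an unadjusted p under 0.05, as had 1288 of all genes. Against unstimulated EGCs, 7 of 10 were called higher in TME-CM at 12 h (all but Tap2, Psmb8 and Nlrc5, against 2.67% of all genes) and 9 of 10 at 24 h (all but Tap2, against 4.82%), with medians of 2.21 and 2.82. DESeq2's Wald test called 7 genes against H-CM at 12 h and 8 at 24 h, and 10 and 9 against unstimulated EGCs, while one edgeR model of all 36 libraries, which includes those of 6 h, called 1 against H-CM at each time (Psmb10 at 12 h, H2-D1 at 24 h). Shares of all genes called were not computed for these alternative fits, nor for those below with libraries left out. The plot of levels by library shows the 10 genes in all 9 groups.

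**Figure D1:**
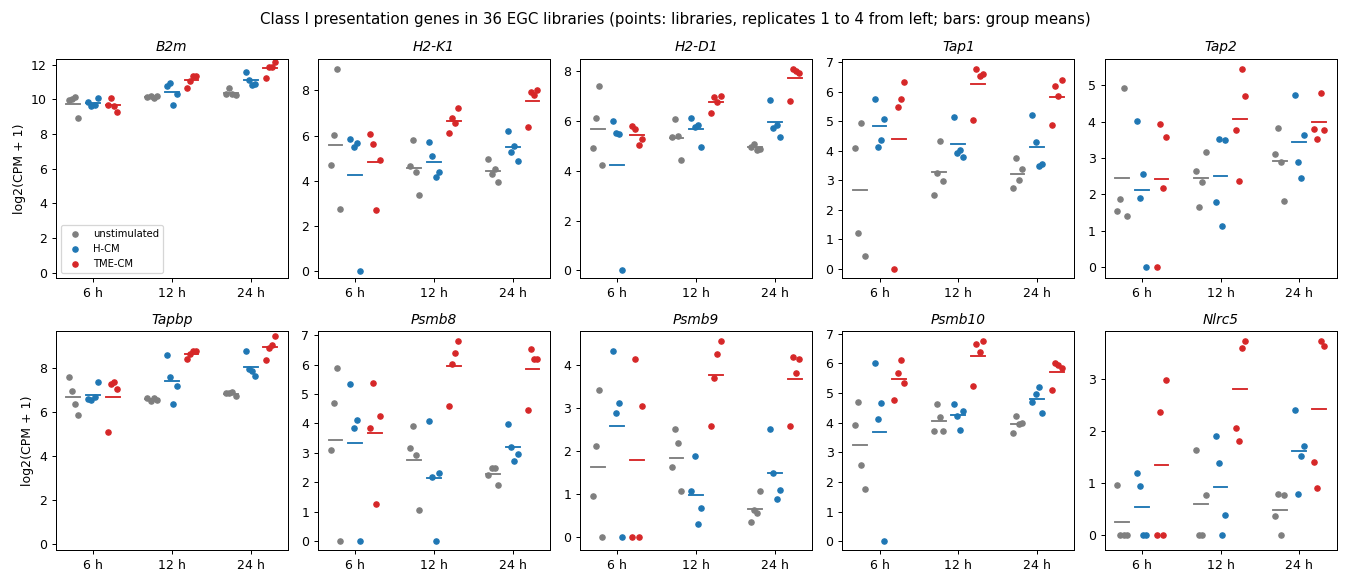
Level of each of the 10 class I genes as log2(CPM + 1) in the 36 libraries, by time and stimulation; points are libraries in the order of replicates 1 to 4, bars are group means. At 12 h and 24 h the red TME-CM points mostly lie highest, with replicate 1, the leftmost, lowest for 8 of the 10 genes.

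H2-K1, a classical class I heavy chain, stood at 30.5, 18.7, 21.7 and 14.6 CPM in the 4 unstimulated libraries of 24 h, at 72.9, 38.1, 44.9 and 28.5 CPM with H-CM and at 81.1, 245, 223 and 258 CPM with TME-CM. All TME-CM libraries lay above all others, and replicate 1 was nearest to the H-CM level. TME-CM exceeded H-CM by a log2 fold change of 2.10 ± 0.38 (SE, adjusted p = 0.00591), and unstimulated EGCs by 3.26 ± 0.40 (adjusted p = 0.000172). At 12 h the groups of TME-CM (68.6, 109, 92.7 and 146 CPM) and H-CM (51.4, 33.5, 17.1 and 19.6 CPM) did not overlap either, but the log2 fold change of 1.78 ± 0.45 had an adjusted p of 0.0616.

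H2-D1, the other classical heavy chain, held 30.2, 33.1, 27.6 and 28.1 CPM in unstimulated, 114, 52.3, 55.8 and 39.9 CPM in H-CM and 111, 272, 258 and 245 CPM in TME-CM libraries of 24 h. The H-CM and TME-CM groups overlapped through their replicates 1 alone. TME-CM exceeded H-CM by a log2 fold change of 1.73 ± 0.32 (adjusted p = 0.00591) and unstimulated EGCs by 2.89 ± 0.34 (adjusted p = 7.73e-05). At 12 h the log2 fold change over H-CM was 1.07 ± 0.29 (adjusted p = 0.0721).

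B2m, the light chain shared by all class I molecules, was at 1249, 1589, 1276 and 1212 CPM in unstimulated, 3036, 2189, 1822 and 1851 CPM in H-CM and 2420, 3680, 3707 and 4603 CPM in TME-CM libraries of 24 h. Each conditioned medium gave libraries above all unstimulated ones, and the H-CM replicate 1 exceeded the TME-CM replicate 1. With TME-CM, B2m rose by a log2 fold change of 0.70 ± 0.18 over H-CM (adjusted p = 0.0266) and 1.44 ± 0.18 over unstimulated EGCs (adjusted p = 1.8e-05), the smallest of the 9 members called against unstimulated EGCs. At 12 h the values were 1102, 1169, 1062 and 1168 CPM, then 1753, 1960, 821 and 1273 CPM, then 1621, 2105, 2626 and 2574 CPM in the same order. TME-CM rose above unstimulated EGCs by 0.99 ± 0.22 (adjusted p = 0.00765), and the difference from H-CM of 0.62 ± 0.22 did not pass the test (adjusted p = 0.219).

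**Figure D2:**
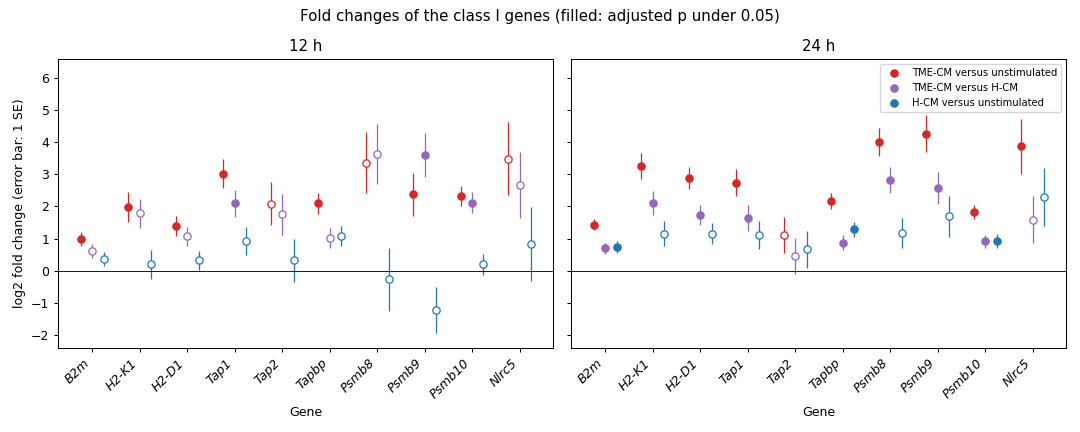
Log2 fold change of each class I gene at 12 h (left) and 24 h (right) for the 3 comparisons, with bars of 1 SE from the edgeR model; filled points have an adjusted p under 0.05. TME-CM over unstimulated EGCs (red) is filled for 7 of 10 genes at 12 h and 9 of 10 at 24 h, and H-CM over unstimulated EGCs (blue) for 0 and 3.

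Of the genes that carry peptides to class I molecules, Tap1 and Tapbp rose with TME-CM, while Tap2 did not pass the edgeR test in any comparison. Tap1, one half-transporter, stood at 5.71, 12.6, 7.06 and 9.52 CPM in unstimulated, 35.5, 18.5, 10.1 and 10.8 CPM in H-CM and 28.0, 72.0, 57.0 and 82.6 CPM in TME-CM libraries of 24 h. The H-CM replicate 1 lay above the TME-CM replicate 1, and the other 3 libraries of each group were apart. Tap1 exceeded its H-CM level by 2.10 ± 0.42 at 12 h (adjusted p = 0.00981) and 1.64 ± 0.41 at 24 h (adjusted p = 0.033).

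Tap2, the partner half-transporter, stood at 7.70, 13.3, 6.42 and 2.52 CPM in unstimulated, 25.8, 6.40, 4.44 and 11.4 CPM in H-CM and 13.0, 10.5, 26.8 and 12.8 CPM in TME-CM libraries of 24 h. The 3 groups overlapped, and the log2 fold change was 0.45 ± 0.56 against H-CM (adjusted p = 0.788) and 1.12 ± 0.56 against unstimulated EGCs (adjusted p = 0.318). Its counts ran from 18 to 176 in the libraries of 24 h, and its standard errors were larger than those of Tap1. At 12 h the estimates were larger, 1.76 ± 0.65 over H-CM and 2.08 ± 0.67 over unstimulated EGCs, but did not pass the test either (adjusted p = 0.263 and 0.105). Over unstimulated EGCs at 12 h, Tap2 was called by DESeq2 (adjusted p = 0.0305), and by edgeR without the filter on low counts, with only the 2 groups compared and without TME-CM replicate 2 (adjusted p = 0.0005, 0.0397 and 0.0364). Without the filter it was also called over H-CM at 12 h and over unstimulated EGCs at 24 h (adjusted p = 0.00817 and 0.00252). Whether Tap2 differed from Tap1 in its response was not tested.

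Tapbp encodes tapasin, which holds class I molecules at the transporter until a peptide is bound. It lay at 116, 117, 119 and 106 CPM in unstimulated, 442, 246, 231 and 197 CPM in H-CM and 335, 478, 527 and 713 CPM in TME-CM libraries of 24 h. Unstimulated libraries were tightly grouped and below all others, and H-CM replicate 1 again lay within the TME-CM range. The log2 fold change at 24 h was 1.29 ± 0.24 for H-CM over unstimulated EGCs (adjusted p = 0.0098), 2.17 ± 0.25 for TME-CM over unstimulated EGCs (adjusted p = 2.33e-05) and 0.88 ± 0.24 for TME-CM over H-CM (adjusted p = 0.0444).

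All 3 immunoproteasome subunits rose with TME-CM at 24 h, and Psmb8 had the largest difference from H-CM of the 10 genes. Psmb8 held 3.71, 4.55, 4.65 and 2.80 CPM in unstimulated, 14.7, 8.23, 5.55 and 6.85 CPM in H-CM and 21.0, 90.3, 71.2 and 72.5 CPM in TME-CM libraries. The groups were in order with no overlap, and replicate 1 of TME-CM was near replicate 1 of H-CM. Log2 fold changes at 24 h were 2.83 ± 0.40 over H-CM (adjusted p = 0.0005) and 4.00 ± 0.43 over unstimulated EGCs (adjusted p = 1.25e-05). At 12 h, Psmb8 differed by 3.63 ± 0.94 from H-CM with an adjusted p of 0.0991, and its H-CM libraries were spread, with 0 CPM in replicate 3 and the highest level in replicate 1.

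Psmb9 rested on 1 to 88 counts in the libraries of 24 h. Its levels were 0.285, 0.546, 0.481 and 1.12 CPM in unstimulated, 4.75, 1.83, 0.863 and 1.14 CPM in H-CM and 5.04, 17.4, 13.3 and 16.7 CPM in TME-CM libraries. TME-CM lay above both other groups, although replicate 1 exceeded the highest H-CM library by little. The log2 fold change over H-CM was 3.60 ± 0.69 at 12 h (adjusted p = 0.00586) and 2.57 ± 0.51 at 24 h (adjusted p = 0.00266).

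Psmb10, encoded away from the complex on chromosome 8, had the smallest adjusted p of the 10 genes against H-CM at 12 h. It held 12.1, 23.5, 17.2 and 12.2 CPM in unstimulated, 23.9, 17.7, 12.6 and 19.9 CPM in H-CM and 36.8, 98.6, 82.3 and 107 CPM in TME-CM libraries of 12 h. TME-CM libraries were above all others, and the log2 fold change over H-CM was 2.12 ± 0.31 (adjusted p = 0.000622). At 24 h, H-CM libraries (24.9, 30.4, 35.5 and 18.8 CPM) lay above unstimulated ones (11.7, 17.7, 14.4 and 15.0 CPM) and just reached the TME-CM range (33.7, 63.3, 60.4 and 56.0 CPM). TME-CM exceeded H-CM by 0.91 ± 0.21 at 24 h (adjusted p = 0.00975).

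In the immunoproteasome, Psmb8 takes the place of Psmb5, Psmb9 that of Psmb6 and Psmb10 that of Psmb7. The 3 ratios of replacing to constitutive subunit were compared within each library by a two-sided exact permutation test of 4 against 4 libraries, whose smallest possible p is 0.0286, and adjusted over 18 comparisons. At 12 h and 24 h, 11 of 12 comparisons reached this p (adjusted p = 0.0468). At 24 h the log2 ratio of Psmb8 to Psmb5 was 0.03 ± 0.89 (SD, n = 4) in TME-CM, -2.41 ± 0.59 in H-CM and -3.55 ± 0.45 in unstimulated EGCs. That of Psmb9 to Psmb6 was -3.95 ± 0.72, -6.55 ± 1.03 and -7.93 ± 0.67 in the same order. That of Psmb10 to Psmb7 was 0.30 ± 0.73, -0.81 ± 0.48 and -1.65 ± 0.37, and its difference of 1.11 between TME-CM and H-CM did not pass (exact p = 0.0857, adjusted p = 0.129); without TME-CM replicate 1 it was 1.41 and passed. The adjusted p of the other 11 is the lowest that these tests gave, and 1 comparison fewer at the smallest p would lift it over the threshold. Leaving out single libraries could therefore lift it through another comparison. The differences kept their direction. At 6 h, 0 of 6 comparisons passed (exact permutation p from 0.143 to 0.857). The size of a ratio also depends on how well each transcript is read, so only its change between groups is used here. Of the 14 constitutive proteasome genes, 0 were called in any comparison at 12 h or 24 h (edgeR), with 3 at an unadjusted p under 0.05 for TME-CM over H-CM at 12 h and 0 at 24 h. Their median log2 fold change for TME-CM over H-CM at 24 h was 0.10.

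**Figure D3:**
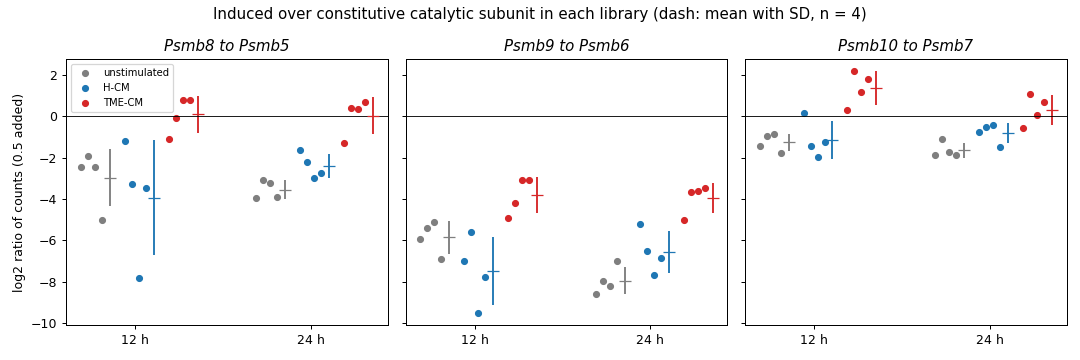
Log2 ratio of the counts of each immunoproteasome subunit to the constitutive subunit it replaces, 0.5 added to each count, in each library of 12 h and 24 h; the dash with its bar is the mean with SD of 4 libraries. TME-CM libraries lie above all H-CM and unstimulated libraries, except that TME-CM replicate 1 falls among the H-CM libraries for Psmb10 to Psmb7 at 24 h.

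Nlrc5, the class I transactivator, rested on few reads, with 0 to 81 counts per library at 24 h. It stood at 0.285, 0.728, 0 and 0.700 CPM in unstimulated, 4.30, 0.732, 1.85 and 2.28 CPM in H-CM and 1.63, 0.872, 12.3 and 11.4 CPM in TME-CM libraries of 24 h. TME-CM replicates 3 and 4 were far above the rest, while replicates 1 and 2 lay within the H-CM range. At 12 h, TME-CM replicates 3 and 4 were also the highest, with 11.1 and 12.3 CPM against 3.16 and 2.49 CPM in replicates 1 and 2. The log2 fold change at 24 h was 3.87 ± 0.85 over unstimulated EGCs (adjusted p = 0.00401) and 1.59 ± 0.72 over H-CM (adjusted p = 0.278). At 6 h Nlrc5 did not pass the filter on low counts and was not tested. In TME-CM replicate 2 of 24 h, Nlrc5 was at 0.872 CPM, which is 2 counts and too few to set its level. H2-D1, Psmb8, Psmb9 and Psmb10 reached their highest TME-CM value of 24 h in that library.

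TME-CM replicate 1 and H-CM replicate 1 were at the edge of their groups for most of the 10 genes. TME-CM replicate 1 was the lowest of its group for 8 of 10 genes at 12 h and for the same number at 24 h, the exceptions being Tap2 and Nlrc5 at both times. H-CM replicate 1 was the highest of its group for 7 of 10 genes at 12 h and 9 of 10 at 24 h, the exceptions being B2m, Tap2 and Psmb9 at 12 h and Psmb10 at 24 h. TME-CM replicate 1 lay above H-CM replicate 1 in 7 of 10 genes at 12 h and 4 of 10 at 24 h. Among the 341 other genes called higher in TME-CM than in H-CM at 24 h, TME-CM replicate 1 was the lowest of its group for 19.9% and H-CM replicate 1 the highest of its group for 61.3%. The labels do not say what a replicate number stands for. With both libraries left out, a choice made after their values were seen and one that by itself widens the difference, 8 of 10 genes were called against H-CM at 24 h and 7 of 10 at 12 h. Leaving out H-CM replicate 1 alone likewise gave 7 calls at 12 h. At 24 h, leaving out replicate 2, 3 or 4 of either group gave 5 calls, without B2m, Tap1 and Tapbp.

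H-CM alone raised 3 of the 10 genes above unstimulated EGCs at 24 h, B2m, Tapbp and Psmb10, against 1.07% of all genes called higher. Log2 fold changes were 0.74 ± 0.18 for B2m (adjusted p = 0.0362) and 0.93 ± 0.22 for Psmb10 (adjusted p = 0.0262). The median over the 10 genes was 1.16, and 9 of the 10 had an unadjusted p under 0.05, as had 1349 of 12713 genes. This comparison shares its controls with that of TME-CM, for which the median was 2.82. Without unstimulated replicate 1 there were 0 calls, without H-CM replicate 2, unstimulated replicate 3 or unstimulated replicate 4 there was 1, and without H-CM replicate 1 or 3 there were 2. At 12 h, 0 of 10 were called (edgeR and DESeq2), against 0.354% of all genes. There, 1 gene (Tapbp, 1.07 ± 0.31) had an unadjusted p under 0.05, as had 688 of 12156 genes. Tapbp was called by edgeR without the filter on low counts and without H-CM replicate 3. Psmb8 and Psmb9 had negative estimates there, of -0.27 ± 0.99 and -1.22 ± 0.71.

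At 6 h, when 9 of the 10 genes were tested, 0 were called in any comparison by edgeR or DESeq2 fitted to the libraries of this time, and the edgeR model of all 36 libraries called Psmb10 for TME-CM over unstimulated EGCs. Over all 9256 genes, 0.0972% were called higher in TME-CM than in H-CM, 0.432% higher in TME-CM than unstimulated and 0% higher in H-CM than unstimulated EGCs. In the fit of 6 h, Psmb10 alone had an unadjusted p under 0.05, for TME-CM over unstimulated EGCs, where its groups did not overlap (26.2, 50.2, 68.1 and 39.8 CPM against 14.3, 24.9, 4.88 and 2.37 CPM; 1.92 ± 0.76, adjusted p = 0.592). Of all 9256 genes, 573 had an unadjusted p under 0.05 in this comparison. B2m, the gene with the most counts, differed from H-CM by -0.12 ± 0.34 at 6 h. H2-K1 ran from 5.64 to 493 CPM in unstimulated libraries of 6 h, the highest in the library of 256453 counts, and from 5.62 to 66.2 CPM in TME-CM libraries, and its differences between groups did not pass the test.

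The change of the TME-CM effect over H-CM with time was tested in models that join both times. From 6 h to 24 h, 0 of the 10 genes were called, as were 0% of 12115 genes. An unadjusted p under 0.05 was held by 1021 of all genes and by 5 of the 10. The largest estimates among these 5 were 3.41 ± 1.62 for Psmb9, 3.08 ± 0.99 for Psmb8 and 2.43 ± 0.71 for H2-K1 (adjusted p = 0.59, 0.339 and 0.274). From 6 h to 12 h, 0 of 10 were called, against 0.00816% of 12249 genes, with 5 at an unadjusted p under 0.05, as were 1045 of all genes. From 12 h to 24 h, 0 of 10 and 0% of 12702 genes were called, and Psmb10 alone had an unadjusted p under 0.05, with a change of -1.18 ± 0.40 (adjusted p = 1). Among all genes, 358 had an unadjusted p under 0.05 for this last change. A later onset of the class I genes than 6 h was therefore not shown by a test of the difference between times.

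Among the regulators of class I genes, Irf9 and Irf1 were above unstimulated EGCs with TME-CM from 6 h on, and Stat2 and Irf9 were above them with H-CM from 12 h on. Stat2 and Irf9 carry interferon signals to interferon-stimulated genes, and Irf1 is a further transcription factor that these signals induce. In TME-CM at 6 h, Irf9 was called (113 ± 49.6 against 12.5 ± 7.30 CPM, SD, n = 4; 3.17 ± 0.61, adjusted p = 0.00769), as was Irf1 (3.19 ± 0.71, adjusted p = 0.0408). H-CM raised Stat2 and Irf9 too: at 12 h by 2.60 ± 0.39 and 2.50 ± 0.28 (adjusted p = 0.0025 and 0.000113) and at 24 h by 2.10 ± 0.27 and 1.83 ± 0.19 (adjusted p = 0.000125 and 1.38e-05).

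Irf9 stood at 16.3, 22.2, 23.3 and 32.1 CPM in unstimulated, 108, 77.8, 85.3 and 63.9 CPM in H-CM and 89.9, 108, 120 and 111 CPM in TME-CM libraries of 24 h. Replicate 1 was the highest of the H-CM and the lowest of the TME-CM libraries for this gene as well. The TME-CM excess over H-CM at 24 h was 0.71 ± 0.24 for Stat2 (adjusted p = 0.102) and 0.35 ± 0.18 for Irf9 (adjusted p = 0.345), neither of which passed the test. Irf1 did pass, at 43.0, 33.1, 48.1 and 33.7 CPM in H-CM and 49.6, 78.1, 98.0 and 84.3 CPM in TME-CM libraries, with no overlap (0.96 ± 0.19, adjusted p = 0.0027). Its difference at 12 h was 1.65 ± 0.26 (adjusted p = 0.000952).

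Of the 25 listed regulators, 22 were tested at 24 h, and 3 were called higher in TME-CM than in H-CM: Irf1, the interferon gamma receptor chain Ifngr2 (0.95 ± 0.24, adjusted p = 0.0183) and the type I interferon receptor chain Ifnar2 (0.59 ± 0.16, adjusted p = 0.0347). At 12 h, 2 were called higher, Irf1 and Ifngr2. Over unstimulated EGCs, TME-CM also raised the NF-kB subunit gene Nfkb1 at 12 h (1.57 ± 0.36, adjusted p = 0.00923) and the kinase Jak2 at 24 h (0.63 ± 0.20, adjusted p = 0.0425). Of the interferon genes, the list held Ifng, with 1 count, and Ifnb1, with 0 counts over the 36 libraries. Ciita, the transactivator of class II genes related to Nlrc5, had 3 counts in all.

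**Figure D4:**
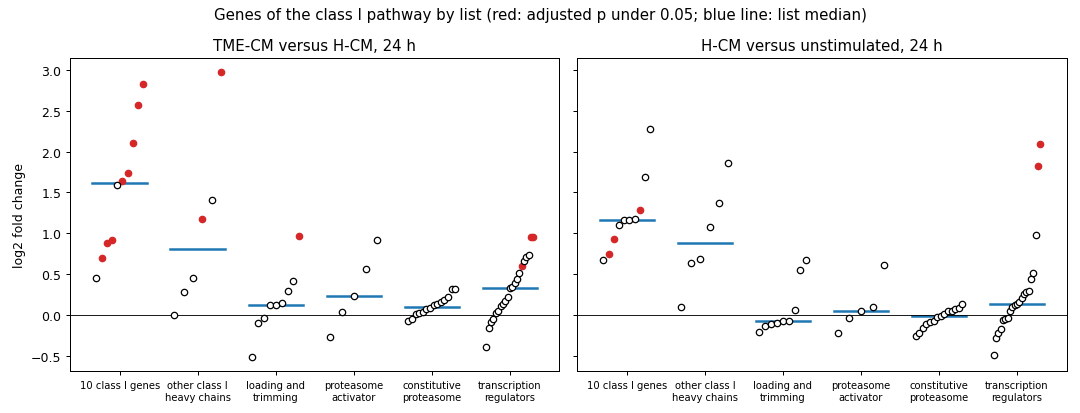
Log2 fold changes at 24 h of the 10 class I genes and of 5 lists of related genes, for TME-CM over H-CM (left) and H-CM over unstimulated EGCs (right); each point is a gene, red points have an adjusted p under 0.05 and blue lines are list medians. On the left 8 of the 10 class I genes and 0 of 14 constitutive proteasome genes are red, and on the right the red regulators are Stat2 and Irf9.

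Of 17 other class I heavy chain genes, 6 were tested at 24 h, and 2 were called higher in TME-CM than in H-CM. The nonclassical heavy chain H2-T22 rose from 10.3 ± 4.68 to 23.5 ± 8.84 CPM (SD, n = 4; log2 fold change 1.17 ± 0.33, adjusted p = 0.0366), and H2-Q7 from 0.715 ± 1.20 to 5.92 ± 3.51 CPM (2.97 ± 0.85, adjusted p = 0.0423). Against unstimulated EGCs, 4 of the 6 were called higher, with Cd1d1, which presents lipids (0.97 ± 0.27, adjusted p = 0.0211), and H2-Q4 (3.26, adjusted p = 0.0413) added. The H2-Q and H2-T genes are close copies, and their reads may be split or lost by the counting. H2-Q4 and H2-Q7 rested on few reads, with 245 and 192 counts over the 36 libraries. Up to 98 and 64 of these came from a single library. Among 9 genes of peptide loading and trimming, 1 was called: Erap1, the aminopeptidase that trims peptides, rose from 10.2 ± 3.45 CPM in H-CM to 20.7 ± 5.12 CPM in TME-CM at 24 h (0.96 ± 0.27, adjusted p = 0.0384). Of 5 genes of the proteasome activator and of assembly, the activator subunit Psme1 was called higher than H-CM at 12 h (1.35 ± 0.25, adjusted p = 0.0048), and 0 of 5 at 24 h (edgeR), with 2 at an unadjusted p under 0.05. Over unstimulated EGCs, Psme1 was called at both times (1.36 ± 0.25 at 12 h and 1.17 ± 0.18 at 24 h, adjusted p = 0.00173 and 0.000109), and Psme2, the other activator subunit, at 12 h (1.34 ± 0.36, adjusted p = 0.0353).

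Genes whose pattern was most like that of the class I genes were ranked by Pearson's r with the mean log2 CPM score of the 10 genes, over the 24 libraries of 12 h and 24 h and 10184 genes. This is a description over libraries that share groups and times. The 10 genes with the highest r were Iigp1 (r = 0.946), Ly6e (0.946), Cxcl16 (0.941), Serpina3f (0.936), Zbp1 (0.934), Cx3cl1 (0.933), Lcn2 (0.927), Irf1 (0.925), Saa3 (0.924) and Pdpn (0.919). Iigp1 is an interferon-inducible GTPase, Cxcl16 and Cx3cl1 are the membrane-bound chemokines, and Saa3 and Lcn2 are acute-phase genes. Among the members, r with the score was 0.656 for Tap2, 0.841 for Nlrc5 and between 0.902 and 0.941 for the other 8. Each member is itself part of the score, which raises its r, so these values cannot be set beside those of the other genes.

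Cells of the immune system express class I genes at high levels, so their markers are given beside these results. Of 14 macrophage and antigen presenting cell markers in the table, 13 were tested at 24 h, and H2-Ab1, a class II chain, was called higher in TME-CM than in H-CM (1.76, adjusted p = 0.0194). Against unstimulated EGCs, 4 of 13 were called higher: H2-Ab1, H2-Aa, Cd74 and Cd14, of which the first 3 belong to class II presentation. Their levels were low, with H2-Ab1 at 0.792 ± 0.263 CPM in unstimulated, 2.37 ± 1.25 CPM in H-CM and 8.91 ± 3.60 CPM in TME-CM EGCs at 24 h (SD, n = 4). The macrophage genes Csf1r and Ptprc, the latter of all leukocytes, were at 5.59 ± 1.71 and 4.37 ± 4.13 CPM in TME-CM and 6.62 ± 4.13 and 3.22 ± 1.73 CPM in H-CM EGCs at 24 h. These 2 do not stand for the list. For TME-CM over H-CM, 10 of the 13 markers had a positive estimate, with a median log2 fold change of 0.22. An unadjusted p under 0.05 (edgeR) was held by 3 of them, as by 2036 of 12713 genes. Over unstimulated EGCs, 10 of 13 were positive, with a median of 0.63. Summed over the list, the markers ran from 65.8 to 264 CPM in unstimulated, 94.7 to 399 CPM in H-CM and 111 to 453 CPM in TME-CM libraries of 24 h, with none at 0 in a whole group. The 10 T and NK cell markers summed to at most 13.1 CPM in any library of 24 h, and Cd8a and Trac were at 0. At 24 h, 4 of 7 smooth muscle markers were called lower and 4 of 6 fibroblast markers (Dcn, Pdpn, Pdgfra and Lum) higher in TME-CM than in H-CM EGCs. The part of such cells in the class I levels was not tested.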

How the data were processed

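Gene expression was measured by QuantSeq 3′ mRNA sequencing in 36 libraries. The deposited values are raw counts per gene: the authors trimmed reads with fastq-mcf, aligned them to mm10 with HISAT2, discarded multi-mapped reads and counted with HT-seq Count. The annotation and strand setting are not given in the sources used here. The submitters' processing notes also list FastQC 0.11.7 and SAMtools 1.5.

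Tests used edgeR 4.0.16 under R 4.3.3 (limma 3.58.1): filterByExpr with a minimum count of 10, TMM scaling and a robust quasi-likelihood model of 12 libraries at each time point, with Benjamini-Hochberg adjustment over all genes tested and calls at an adjusted p under 0.05. Fold changes are log2 with SE. Ratios of subunits used counts plus 0.5. The calling was checked on counts simulated for 12 h and 24 h, with large changes of a single size and a common dispersion. It recovered most of these changes, but smaller changes, gene-specific spread and 6 h were not simulated. Alternatives were DESeq2 1.42.0 (size factors and Wald test), no filter, other models, a replicate block and libraries left out. The labels do not say whether libraries of one replicate number are paired, and the main models did not pair them. The members, gene lists and tests were chosen with earlier results of these data known. All 10 members are named, with the genes of 5 pathway lists called higher in TME-CM at 12 h or 24 h (at least the 5 of smallest adjusted p a list) and the 10 genes most alike. The result of 1 such regulator is not reported or plotted here.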

Additional observations from a re-analysis of the deposited data

Results flagged for a closer look

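Over the 10 class I genes and 9 groups, 90 sets of 4 libraries were examined for a library far from the other 3 by Dixon's ratio, and 8 held one. The cut-off flags about 1 in 20 sets of normally distributed values. CPM from low counts, some at 0, need not be so distributed, so the 8 cannot be set against that share. In 4 of the 8 the library was of 6 h: H2-K1 (493 CPM) and Tap2 (29.3 CPM) in unstimulated replicate 3, which held 256453 counts, Tapbp (163 CPM) in H-CM replicate 4, which held 13518 counts, and Nlrc5 (0.952 CPM) in unstimulated replicate 1, where the other 3 libraries were at 0. At 12 h, Tap1 was high in H-CM replicate 1 (34.7 CPM). At 24 h, H2-D1 was low in TME-CM replicate 1 (111 CPM); without replicate 1 of both media, left out because of their values, the log2 fold change over H-CM was 2.36 in place of 1.73, and a larger value follows from that choice. Also at 24 h, B2m was high in unstimulated replicate 2 (1589 CPM) and Tap2 in TME-CM replicate 3 (26.8 CPM). What sets these libraries apart was not tested.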

How the results depend on the processing

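The number of class I genes called moved with the model and with the filter on low counts. Shares of all genes called were not computed for these alternatives. For TME-CM over H-CM, 3 of 10 at 12 h became 8 without the filter on low counts, 7 with DESeq2's Wald test, 7 without replicate 1 of both media and 1 in one model of all 36 libraries, and 8 of 10 at 24 h became 5 with a replicate block and 1 with all 36 libraries. For TME-CM over unstimulated EGCs, one model of all 36 libraries gave 1 at 6 h (0 in the model per time), 4 at 12 h (7) and 7 at 24 h (9), whereas all 10 were called without the filter at 12 h and 24 h and by DESeq2 at 12 h. For H-CM over unstimulated EGCs, no filter gave 1 at 12 h (0) and 8 at 24 h (3), where only the 2 groups compared gave 5, omitting replicate 1 of both media 5 and all 36 libraries 0. Where the difference between both media was compared between 6 h and 24 h, or 6 h and 12 h, no filter gave 1 each (0). Without the row Yam1, the same members were called in each comparison. The joint model shares its dispersion with the more variable libraries of 6 h. The cause of each move was not tested. Where a member was called in the model per time, its log2 fold change kept its sign in all alternatives. The subunit ratio differences at 12 h and 24 h kept theirs too. Values that were not called could change sign. For H-CM over unstimulated EGCs at 24 h, that of Tap2 was 0.67, but -0.13 without H-CM replicate 1. Leaving out one library at a time, calls ranged over 2 to 7 and 5 to 8 for TME-CM over H-CM at 12 h and 24 h, 5 to 7 and 9 to 9 over unstimulated EGCs, 0 to 1 and 0 to 3 for H-CM over unstimulated EGCs, and 0 to 2 for the comparison of 6 h with 24 h, 2 without TME-CM replicate 2 of 6 h. The labels do not say whether the block is a pairing. Of 36 pairs of libraries with one number, 6 had r over 0.1, in a range from -0.162 to 0.229. Pairs with different numbers were not compared.

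The 11 passing log2 subunit ratio differences, just under the threshold, had an adjusted p over it in 78 fits without one library, and kept their direction. Another comparison at a larger p could by itself lift the adjusted p. Over all 12 comparisons, 29 refits kept their result and 1 became stronger. Over H-CM, Psmb8 to Psmb5 ranged over 2.74 to 4.94 at 12 h and 2.22 to 2.87 at 24 h, Psmb9 to Psmb6 over 2.97 to 4.28 and 2.23 to 3.05, and Psmb10 to Psmb7 over 2.20 to 2.91 and 0.85 to 1.41. Over unstimulated EGCs they ranged over 2.37 to 3.45 and 3.36 to 4.02, 1.68 to 2.40 and 3.77 to 4.34, and 2.35 to 2.97 and 1.69 to 2.25.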
